A study of Mus musculus with 2 samples.

Results

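H/ACA snoRNAs and scaRNAs are guide RNAs, and short fragments of them were read in the small RNA libraries of J1 mESCs. Their fragments were the tags (distinct sequences) that did not match a miRNA hairpin and that matched perfectly, over their whole length, a snoRNA or scaRNA of the GENCODE M21 annotation whose symbol starts with Snora or Scarna. There were 49 such RNAs, 40 Snora and 9 Scarna, of 70 to 414 nt. In the DMSO library 468 of 910008 distinct tags and 3037 of 18870345 clean reads met the rule, and in the PD library 518 of 1046544 tags and 2844 of 20944808 reads. J1, an established mouse embryonic stem cell line, was used throughout. All cells were kept feeder-free on gelatin with 1000 U/mL LIF, the cytokine that sustains self-renewal, and were treated for 24 h with 1 μM PD0325901 (PD), an inhibitor of MEK that blocks ERK signaling, or with the vehicle DMSO. The RNA of 3 experiments was pooled into 1 library per treatment, so there were no replicates. Intervals below are exact Clopper-Pearson 95% intervals. They cover counting error only and treat each read as independent. PCR reads without molecular identifiers are not independent molecules, so the intervals can be too narrow. No p-value was computed between the treatments.

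An H/ACA RNA folds into hairpins joined by a single-stranded hinge with the H box, whose letters are ANANNA, and ends a few bases after the triplet ACA. It binds dyskerin and its partner proteins and pairs with a target RNA through the pocket of a hairpin, where a uridine of the target is turned into pseudouridine. Most Snora RNAs reside in the nucleolus and guide the modification of rRNA, while scaRNAs reside in Cajal bodies and guide the modification of spliceosomal snRNAs. Many are cut out of the introns of host genes, often genes of ribosomal proteins or the Snhg genes, whose known product is mainly the snoRNA itself. Short fragments of them are common in small RNA libraries.

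The name H/ACA was checked against the sequences. The ACA triplet lay within 3 nt of its place, 3 bases before the annotated 3′ end, in 38 of 40 Snora RNAs, with Snora44 and Snora81 as the exceptions, but in 4 of 9 Scarna RNAs. Scarna6, Scarna9, Scarna10 and Scarna17 held a C box, TGATGA, within the first 20 bases together with a D box, CTGA, within the last 10, and Scarna2 held the D box alone. These are the boxes of the other snoRNA class, the C/D RNAs that guide 2′-O-methylation, and 71.1% and 72.2% of 97 Snord RNAs held them in the same windows. The 5 scaRNAs gave 139 reads of the DMSO library and 168 of the PD library, or 4.58% and 5.91% of the reads described here. They are kept under the rule, and are called scaRNAs and not H/ACA RNAs below.

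The 10 RNAs with the most reads are shown first, because their fragments came from a few fixed places. Each line is the RNA from 5′ to 3′ as GENCODE M21 gives it, as DNA letters. The tag with the most reads over both libraries is in capitals.
Snora57: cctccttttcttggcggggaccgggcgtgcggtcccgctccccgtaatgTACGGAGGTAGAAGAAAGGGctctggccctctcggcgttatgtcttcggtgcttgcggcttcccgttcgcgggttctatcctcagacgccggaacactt
Snora16a: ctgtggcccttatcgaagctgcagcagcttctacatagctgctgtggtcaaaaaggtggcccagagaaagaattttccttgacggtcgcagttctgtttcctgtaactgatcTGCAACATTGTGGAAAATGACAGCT
Snora44: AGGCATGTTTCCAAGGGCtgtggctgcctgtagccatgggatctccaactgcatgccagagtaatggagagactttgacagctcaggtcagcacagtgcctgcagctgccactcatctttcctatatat
Snora81: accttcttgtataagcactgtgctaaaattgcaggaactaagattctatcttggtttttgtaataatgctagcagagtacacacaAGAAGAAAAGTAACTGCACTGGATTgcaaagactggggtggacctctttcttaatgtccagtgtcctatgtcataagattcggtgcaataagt
Snora61: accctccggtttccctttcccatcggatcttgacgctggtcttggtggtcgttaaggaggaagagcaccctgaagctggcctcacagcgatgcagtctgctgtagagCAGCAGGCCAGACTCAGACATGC
Snora7a: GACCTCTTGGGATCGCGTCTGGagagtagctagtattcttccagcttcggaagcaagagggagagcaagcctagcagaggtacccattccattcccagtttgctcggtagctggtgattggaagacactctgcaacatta
Snora24: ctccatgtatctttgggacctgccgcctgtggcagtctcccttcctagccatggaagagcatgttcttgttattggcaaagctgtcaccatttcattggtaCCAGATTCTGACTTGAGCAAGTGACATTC
Snora41: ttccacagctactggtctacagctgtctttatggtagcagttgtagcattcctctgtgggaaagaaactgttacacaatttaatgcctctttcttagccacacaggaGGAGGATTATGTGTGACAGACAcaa
Snora70: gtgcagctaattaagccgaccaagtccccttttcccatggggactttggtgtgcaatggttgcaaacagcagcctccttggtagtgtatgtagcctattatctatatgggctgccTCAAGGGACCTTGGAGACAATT
Snora75: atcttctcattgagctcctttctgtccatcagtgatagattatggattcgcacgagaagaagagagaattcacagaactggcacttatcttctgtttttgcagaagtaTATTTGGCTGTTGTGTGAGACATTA
On the GRCm38 assembly these RNAs lie at chr19:8888538-8888685 (minus strand), chr4:132309464-132309600 (plus), chr4:132309941-132310069 (plus), chr16:23110756-23110933 (plus), chr4:132310240-132310369 (plus), chr6:115807975-115808114 (minus), chr3:123507937-123508066 (minus), chr1:63179004-63179135 (plus), chrX:74272484-74272620 (plus) and chr1:86351169-86351301 (minus). Snora57 has no annotated host gene on its strand. Snora16a, Snora44 and Snora61 follow one another in Snhg12. Snora24 lies in Snhg8, Snora81 in Eif4a2, which encodes an RNA helicase of translation initiation, and Snora41 in Eef1b2, an elongation factor subunit. Snora7a lies in Rpl32, Snora70 in Rpl10 and Snora75 in Ncl, the gene of nucleolin.

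The capitals fall at the 3′ end in 6 of these RNAs, at the 5′ end in Snora44 and Snora7a, and inside the RNA in Snora57 and Snora81. Both inner tags hold the H box. That of Snora57 spans bases 50 to 69 around AGAAGA, which starts at base 59, and that of Snora81 spans bases 86 to 110 around AAAGTA, which starts at base 92. Of all reads, 39.1% in the DMSO library and 35.4% in the PD library held the H box assigned here, and 31.1% and 36.8% held the ACA box. The H box reads numbered 1187 and 1006, of which 916 and 705 were those of Snora57, so the H box shares rest largely on that RNA. The H box was taken as the least paired ANANNA of the middle of the RNA in a predicted fold, so it is an assignment by sequence and not a mapped site.

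The reads were few and concentrated. They made up 161 reads per 1000000 clean reads (RPM) in the DMSO library and 136 RPM in the PD library, or 0.0161% (0.0155 to 0.0167) and 0.0136% (0.0131 to 0.0141) of the clean reads. The share was thus 0.844-fold in the PD library (0.801 to 0.888). Snora RNAs gave 2796 and 2623 reads, a fold change of 0.845 (0.801 to 0.892), and Scarna RNAs 241 and 221 reads, a fold change of 0.826 (0.685 to 0.996). The 5 RNAs with the most reads held 64.2% and 64.3% of the reads, and the first 10 held 81.8% and 80.6%. Snora57 alone held 33.3% and 27.1%, and without it the fold change of the share was 0.921. Over the same libraries, the fragments of Snord RNAs had a fold change of 1.05 (1.03 to 1.08), those of snRNA genes 0.978 (0.963 to 0.993) and those of miRNA hairpins 0.872 (0.871 to 0.874). Terc, the telomerase RNA, ends in an H/ACA domain but is not a Snora or Scarna RNA. It had 61 reads with DMSO and 55 with PD, a fold change of 0.812 (0.554 to 1.19).

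Of the 49 RNAs, 46 had at least 1 read, 24 had at least 20 reads over both libraries together, and 13 had at least 100. The 22 RNAs with 1 to 19 reads had 18 at most and gave 67 reads with DMSO and 79 with PD in all. Snora15, Snora19 and Snora35 had 0 reads in either library, which allows up to 3 reads, or 0.159 RPM and 0.143 RPM. Some reads cannot be given to 1 gene. In the DMSO library 1342 reads and in the PD library 1096 also matched another annotated snoRNA gene, and 55.1% and 60.8% of the reads matched a single Snora or Scarna RNA and no other gene than its host. Most of the shared reads were those of Snora57, of which 0.505% were unique. They match Gm26132 as well, an annotated copy with 142 of 148 bases in common in order, so the levels given for Snora57 are those of either gene or both. Reads that also match a transcript of the host gene were not set apart, and there were 1585 with DMSO and 1656 with PD. Whether the snoRNA or the host transcript was their source cannot be told from the tags.

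**Figure D1:**
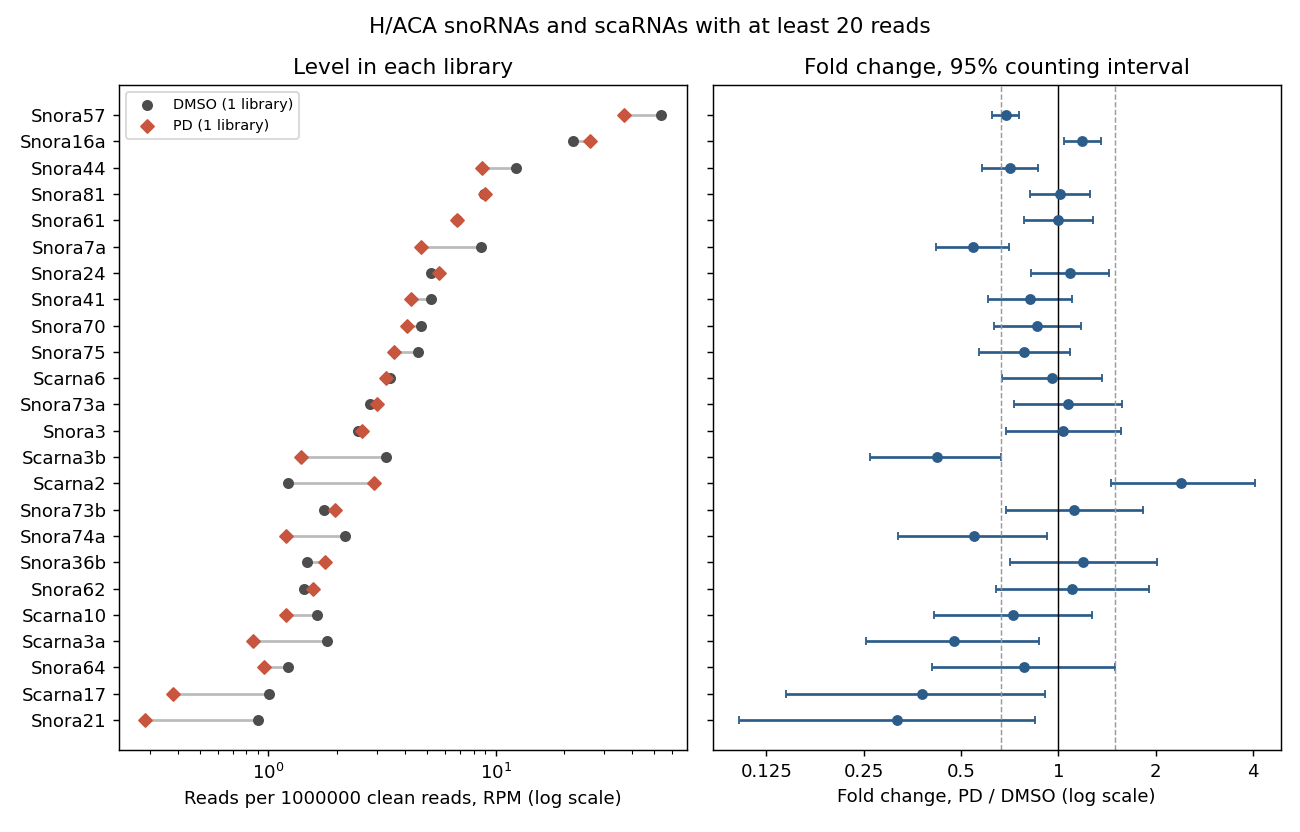
The 24 RNAs with at least 20 reads over both libraries, ordered by reads. Left, reads per 1000000 clean reads on a log axis, with 1 point for the DMSO library and 1 for the PD library. Right, the fold change of PD against DMSO on a log axis with its 95% counting interval, where the solid line marks 1 and the dashed lines mark 1.5-fold either way. Scarna2 lies beyond the upper line and 6 RNAs lie beyond the lower line, while Snora57 lies just inside it at 0.688.

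The treatments were compared by the fold change of RPM for the 24 RNAs with at least 20 reads, and an RNA counted as higher or lower at a change of at least 1.5-fold, which is the threshold of the study. Scarna2 was the 1 RNA that was higher in the PD library (4.17% of 24), beside 21.2% of 1766 small RNA genes with at least 20 reads. Snora7a, Scarna3b, Snora74a, Scarna3a, Scarna17 and Snora21 were lower (25% of 24), beside 6.34% of the 1766 genes. The intervals of all 7 fold changes left out 1, and with that added to the criterion the shares over the 1766 genes were 18.7% higher and 4.53% lower. The median fold change of the 24 RNAs was 0.839, with 10 above 1 and 14 below. It was 1.07 over the 1766 genes, 1.10 over 76 Snord RNAs, 1.25 over 552 snRNA genes and 0.919 over 477 miRNA hairpins. A tag counted for every gene it matched, so genes that share tags repeat the same reads in these counts. Of the 552 snRNA genes, 451 lay above 1 and 101 below, while all snRNA reads counted once had a fold change of 0.978. The shares over the 1766 genes are thus weighted by such copies. Without replicates, these counts compare the libraries and not the treatments.

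Snora57 had the highest level, with 1010 reads (53.5 RPM) in the DMSO library and 771 (36.8 RPM) with PD. At 0.688 (0.625 to 0.756), the fold change stayed just short of the threshold, but it passed as lower with the size factors of TMM and of DESeq2, and Snora44 passed with those of DESeq2. Of its reads 91.1% lay in the inner 5′ part around the H box, and the rest ended at the 3′ end. The reads over the H box numbered 916 and 705, a fold change of 0.693, and those at the 3′ end 94 and 65, a fold change of 0.623 (0.447 to 0.864), so both places were lower in the PD library. The capital tag held 512 and 371 reads, about the same part of the RNA in each library at 50.7% and 48.1%. The next most frequent tags were shorter forms of it, which started 1 or 2 bases later or ended 1 base earlier.

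Snora16a came next, with 415 reads (21.99 RPM) with DMSO and 546 (26.1 RPM) with PD, a fold change of 1.19 (1.04 to 1.35). Nearly all of its reads, 98.8%, ended at the last annotated base, while their first bases differed. The capital tag of 25 nt had 189 and 185 reads, which was 45.5% of the reads of Snora16a with DMSO and 33.9% with PD. Forms of 18 to 22 nt had 130 and 219 reads and a fold change of 1.52 (1.22 to 1.90), against 1.01 (0.860 to 1.20) for 23 to 26 nt.

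Snora44, the neighbour of Snora16a in Snhg12, was read at its other end. It had 231 reads (12.2 RPM) with DMSO and 182 (8.69 RPM) with PD, a fold change of 0.710 (0.581 to 0.866), and 96.4% of them lay at the 5′ end. Here the short forms were fewer in the PD library. Tags of 18 to 22 nt had 170 and 96 reads, a fold change of 0.509 (0.392 to 0.657), and tags of 23 to 26 nt had 51 and 75, a fold change of 1.32 (0.916 to 1.93). The most frequent tag was thus the 18 nt form in the DMSO library, with 68 reads against 27, and the 26 nt form in the PD library, with 44 reads against 19. Both begin at the first base of the RNA. Snora61, also in Snhg12, had 127 reads and 141 and the same level in each library, 6.73 RPM, with 81.3% of the reads at the 3′ end. The 3 Snora RNAs of Snhg12 together had 773 and 869 reads, a fold change of 1.01 (0.918 to 1.12).

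Snora7a was the 1 RNA with at least 100 reads that passed the threshold. It had 162 reads (8.58 RPM) in the DMSO library and 98 (4.68 RPM) with PD, a fold change of 0.545 (0.420 to 0.705). Its reads began at the first base in 91.5% of cases and had no fixed last base. Tags of 18 to 22 nt had 77 and 47 reads and those of 23 to 26 nt had 78 and 42, so that both were lower. Relative to the clean reads of the same tag length in each library, a scaling chosen after seeing the data, its fold change was 0.632.

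The intervals of the other RNAs of the first 10 all included 1. Snora81 had 167 and 188 reads, a fold change of 1.01 (0.819 to 1.26), of which 86.8% lay in the inner 3′ part and 4.79% were unique, since other annotated snoRNA genes, mainly Gm22519, share the rest. Snora24 had 98 and 118 reads, a fold change of 1.08 (0.823 to 1.43), all but 2 at the 3′ end. Its 29 nt tag, in capitals above, had 19 reads with DMSO and 43 with PD. Snora41 had 98 and 89 reads, a fold change of 0.818 (0.607 to 1.10). Unlike other RNAs read at the 3′ end, Snora41 had the more fixed first base, at base 108 in 75.4% of its reads, and its capital tag stops 3 bases before the annotated end, at the ACA box itself. Snora70 had 89 and 85 reads, a fold change of 0.860 (0.632 to 1.17), and none of them was unique, as other annotated snoRNA genes hold the same 3′ end. Snora75 had 86 and 75 reads, a fold change of 0.786 (0.569 to 1.08). It was read in 2 places, with 61.5% at the 3′ end, where 59 and 40 reads were counted, and 29.2% in the inner 3′ part, where 19 and 28 were.

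**Figure D2:**
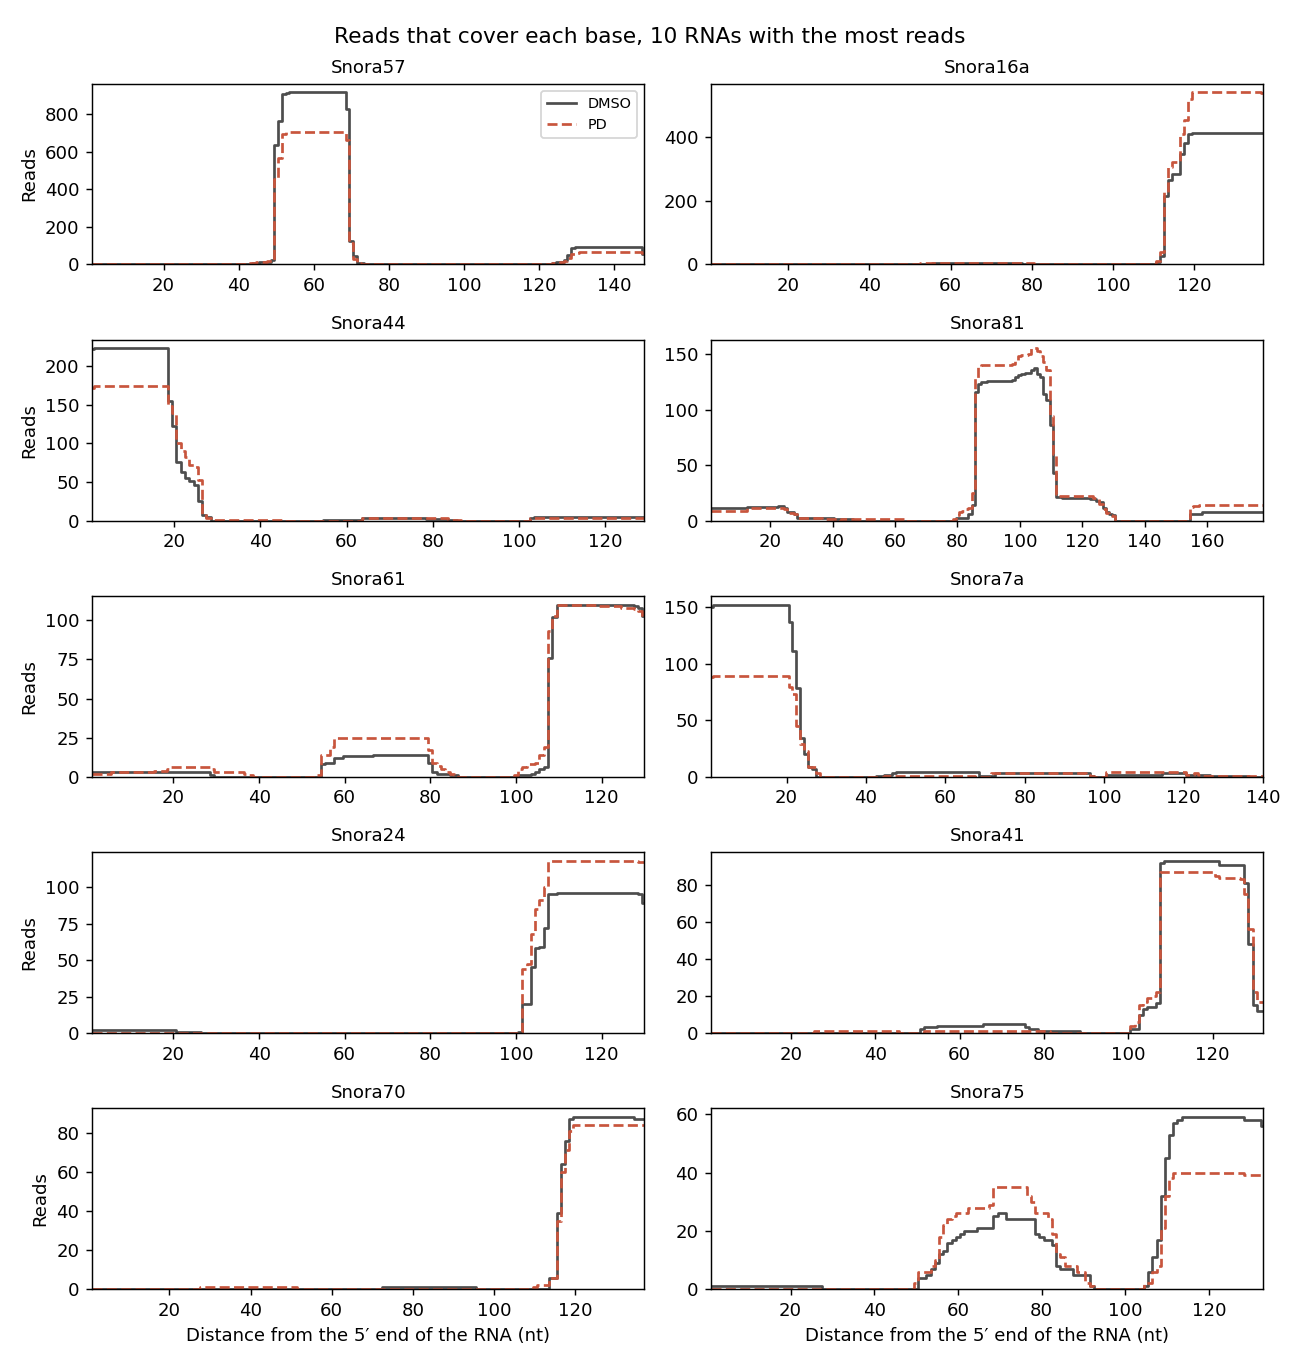
Number of reads that cover each base of the 10 RNAs with the most reads, against the distance from the annotated 5′ end in nt, for the DMSO library (solid line) and the PD library (dashed line). Most reads of each RNA lay in 1 block, or in 2 in Snora75, at the same places in each library, at the 3′ end in Snora16a, Snora61, Snora24, Snora41, Snora70 and Snora75, at the 5′ end in Snora44 and Snora7a, and around the H box in Snora57 and Snora81.

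The next RNAs by reads showed the same kinds of fragment. Snora73a and Snora73b are copies of U17, which is needed for the cleavage of the rRNA precursor and is not known mainly as a guide of modification. They share 198 of 205 bases in order and lie beside each other in Snhg3. Together they had 70 and 87 reads, a fold change of 1.12 (0.808 to 1.56), mostly in the inner 3′ part. Snora3, in Rpl27a, had 47 and 54 reads, a fold change of 1.04 (0.687 to 1.56), with 76.2% at the 5′ end. Snora62, in Rpsa, had 27 and 33 reads, a fold change of 1.10 (0.642 to 1.90), and Snora64, in Rps2, had 23 and 20, a fold change of 0.783 (0.408 to 1.49). Both of these were read mostly at the 5′ end as well. Snora74a, which is U19, had 41 and 25 reads, a fold change of 0.549 (0.320 to 0.925). Snora21, in Rpl23, had 17 and 6 reads, a fold change of 0.318 (0.103 to 0.845), so that a few reads decide its place among the lower RNAs.

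Scarna3a and Scarna3b were read, outside the miRNA hairpins that the rule leaves out, at their 5′ ends alone. Their sequences are shown because the same stretch was read from each copy, although the copies share only 120 bases in order of 140 and 139. Capitals mark the most frequent tag.
Scarna3a: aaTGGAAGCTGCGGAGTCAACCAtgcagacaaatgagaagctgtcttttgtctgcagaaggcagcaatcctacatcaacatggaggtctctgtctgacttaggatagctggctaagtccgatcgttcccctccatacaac
Scarna3b: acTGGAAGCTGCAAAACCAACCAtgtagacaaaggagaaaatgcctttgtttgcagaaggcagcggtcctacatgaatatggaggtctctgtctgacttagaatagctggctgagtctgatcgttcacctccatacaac
Scarna3a lies in Cop1 at chr1:159340283-159340422 on the plus strand, and Scarna3b in Dcaf5 at chr12:80391613-80391751 on the minus strand. All counted reads of either RNA lay at the 5′ end, and the most frequent tag spans bases 3 to 23 in each. Scarna3b had 62 reads (3.29 RPM) with DMSO and 29 (1.38 RPM) with PD, a fold change of 0.421 (0.261 to 0.665). Scarna3a had 34 reads (1.80 RPM) and 18 (0.859 RPM), a fold change of 0.477 (0.254 to 0.869). No counted tag was shared between them. Together they had 96 and 47 reads, a fold change of 0.441 (0.304 to 0.632). The 3′ parts of both RNAs are annotated as miRNA hairpins, Mir1843b in Scarna3a from base 76 and Mir1843a in Scarna3b from base 75. Tags from there were left out by the rule, so fragments of that hairpin are not among these reads. Such tags had 13 and 20 reads in Scarna3a alone and 17 and 17 in Scarna3b alone. The fold changes above are thus those of the 5′ ends and not of the whole RNAs.

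The 1 RNA with a higher level in the PD library, Scarna2, is a scaRNA of the C/D kind known to guide 2′-O-methylation of U2 snRNA. Its last 60 bases are shown because 1 tag at its 3′ end, in capitals, carried most of the difference.
Scarna2, last 60 bases: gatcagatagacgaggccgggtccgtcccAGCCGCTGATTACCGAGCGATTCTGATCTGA
These bases lie at chr3:108554338-108554397 on the minus strand, and the RNA has no annotated host gene. Scarna2 had 23 reads (1.22 RPM) with DMSO and 61 (2.91 RPM) with PD, a fold change of 2.39 (1.46 to 4.05). The capital tag of 31 nt, the whole of bases 384 to 414, had 0 reads in the DMSO library and 30 in the PD library. A tag of 30 nt that starts 1 base later had 6 and 5 reads. Without the 31 nt tag, Scarna2 had 23 and 31 reads, a fold change of 1.21 (0.685 to 2.18). Reads of 31 nt were 0.139% of all clean reads of the DMSO library and 1.21% of those of the PD library. Relative to the clean reads of the same length, the fold change of Scarna2 was 1.26 and under the threshold. The part of the length difference between the libraries in this result was not tested further.

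Of the other scaRNAs with at least 20 reads, Scarna6 and Scarna17 were read mainly at the 5′ end. Scarna6, which is U88, and Scarna10, which is U85, are known to carry C/D boxes at their ends with an H/ACA part between them, and to guide modification of U5 snRNA. Scarna6 had 65 and 69 reads, a fold change of 0.956 (0.672 to 1.36). Its 5′ end had 57 reads with DMSO and 45 with PD, and its 3′ end 6 and 21. Scarna10 had 31 and 25 reads, a fold change of 0.727 (0.411 to 1.27), spread over all 4 places. Scarna17 had 19 and 8 reads, a fold change of 0.379 (0.144 to 0.908), and only 3.70% of them were unique.

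Each read was placed by its ends. A read was at the 5′ end or the 3′ end when its first or last base lay within 5 nt of that annotated end, and otherwise in the inner 5′ or 3′ part by the side of the RNA's midpoint on which its own middle base lay. The 5′ end held 21.9% of the reads (20.4 to 23.4) in the DMSO library and 17.4% (16.1 to 18.9) in the PD library. The 3′ end held 33.8% (32.1 to 35.5) and 40.8% (39.0 to 42.7), the inner 5′ part 33.5% and 28.4%, and the inner 3′ part 10.8% and 13.3%. Among the reads described here, fragments of the 5′ end were thus a smaller part with PD and fragments of the 3′ end a larger part. In RPM, the 5′ end had a fold change of 0.673 (0.598 to 0.757) and the 3′ end 1.02 (0.936 to 1.11). Relative to clean reads of the same length the values were 0.724 and 1.03. At the 5′ end, Snora44 had 223 and 175 of the 664 and 496 reads, and Snora7a 152 and 89. Scarna3b had 62 and 29 there and Scarna3a 34 and 18, so most of the lower 5′ value lay in these RNAs. Snora3, with 35 and 42 reads there, and Snora62, with 24 and 31, were among those that went the other way. The inner 5′ part had a fold change of 0.716 (0.652 to 0.786), but of 0.910 (0.685 to 1.21) without Snora57, and the inner 3′ part 1.04 (0.893 to 1.21). Snord fragments were placed in another way, with 61.4% and 61.1% at the 5′ end and 11.6% and 13.8% at the 3′ end.

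**Figure D3:**
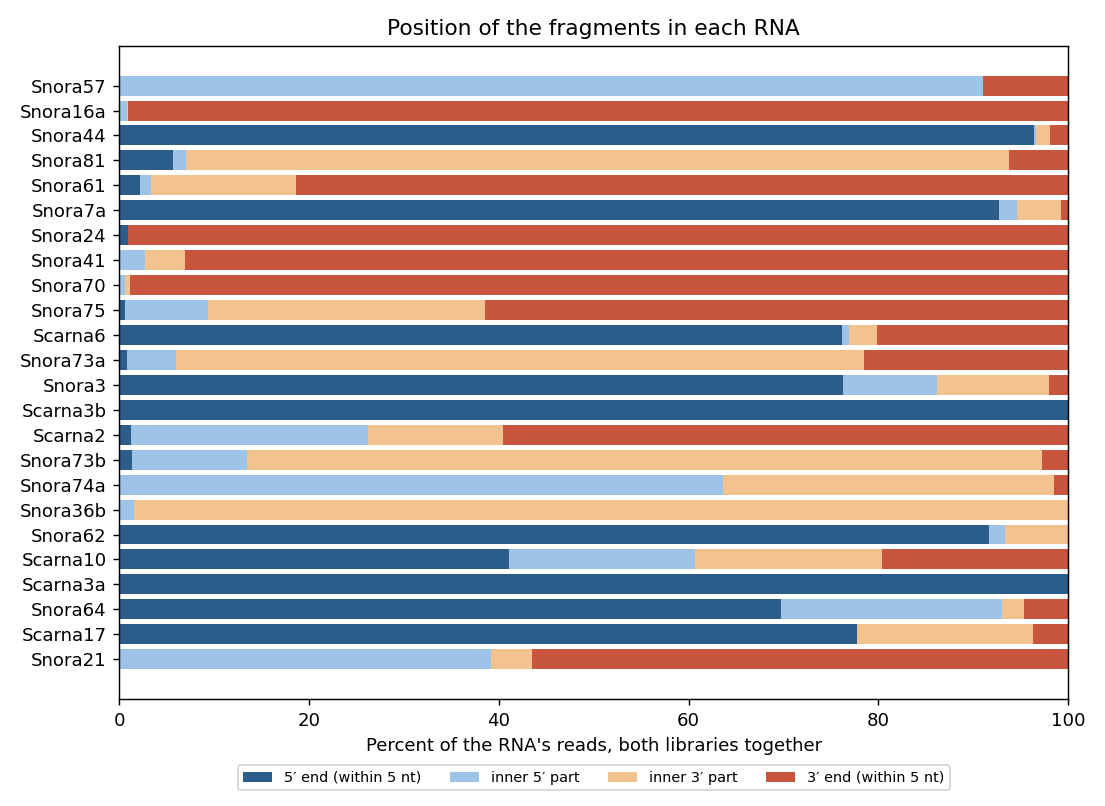
Share of the reads of each RNA at the 5′ end, in the inner 5′ part, in the inner 3′ part and at the 3′ end, in percent of its reads over both libraries, for the 24 RNAs with at least 20 reads. Most RNAs were read mainly in 1 place, and RNAs read at the 5′ end and at the 3′ end stand side by side in the order of reads.

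By RNA, 9 of the 24 had over 50% of their reads at the 5′ end, 8 at the 3′ end, 2 in the inner 5′ part and 4 in the inner 3′ part. The tag end at or near the annotated end was mostly the more fixed one. How fixed was measured as the share of reads with the same first or last base as the most frequent tag. That base was not always the annotated end itself, as the tag began at base 3 in Scarna3a. In the 5′ group the first base was more fixed than the last in 7 of 9, with Scarna6 and Scarna3b as the exceptions, and in the 3′ group the last base in 7 of 8, with Snora41 as the exception. Tags that run past an annotated end cannot match over their whole length, so the rule itself trims the reads there. Of the reads at the 3′ end, 92.0% and 90.1% held the ACA box. The fold change was below 1 in 7 of the 9 RNAs read at the 5′ end, with a median of 0.710, and in 4 of the 8 read at the 3′ end, with a median of 0.930. It was below 1 in 14 of the 24 RNAs and in 730 of the 1766 small RNA genes. Both groups are small, and a link of position with the fold change was not tested. For the most frequent tag, 9 of the 24 RNAs had the same one in each library.

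By length, tags of 20 to 24 nt held 59.9% of the reads (58.2 to 61.7) in the DMSO library and 55.0% (53.1 to 56.8) in the PD library. The longest class, 28 to 32 nt, held 3.36% (2.75 to 4.06) and 8.16% (7.18 to 9.22), or 102 and 232 reads, and no read was longer. The most frequent length was 20 nt in each library, with 25.3% and 20.7% of the reads, and a lower peak stood at 25 nt with 11.4% and 11.6%. The first is mainly the tag of Snora57 and the second that of Snora16a. In RPM, the fold change was 0.732 (0.643 to 0.832) for 18 to 19 nt, 0.774 (0.723 to 0.829) for 20 to 24 nt, 0.952 (0.849 to 1.07) for 25 to 27 nt and 2.05 (1.62 to 2.61) for 28 to 32 nt. All clean reads of these lengths changed by 0.973, 0.826, 1.07 and 2.38, so the longer reads were a larger part of the whole PD library. Relative to clean reads of the same length, the fold change of all reads described here was 0.909 in place of 0.844. With this scaling, Snora24 at 0.820 and Snora62 at 0.976 lay below 1 and Snora70 at 1.05 above it, each on the other side than with RPM. Of the 232 long reads in the PD library, Snora24 gave 47, Scarna2 45 and Scarna6 25, against 20, 7 and 5 with DMSO. What caused the length difference between the libraries was not tested, and with 1 library each it cannot be told apart from the treatment.

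**Figure D4:**
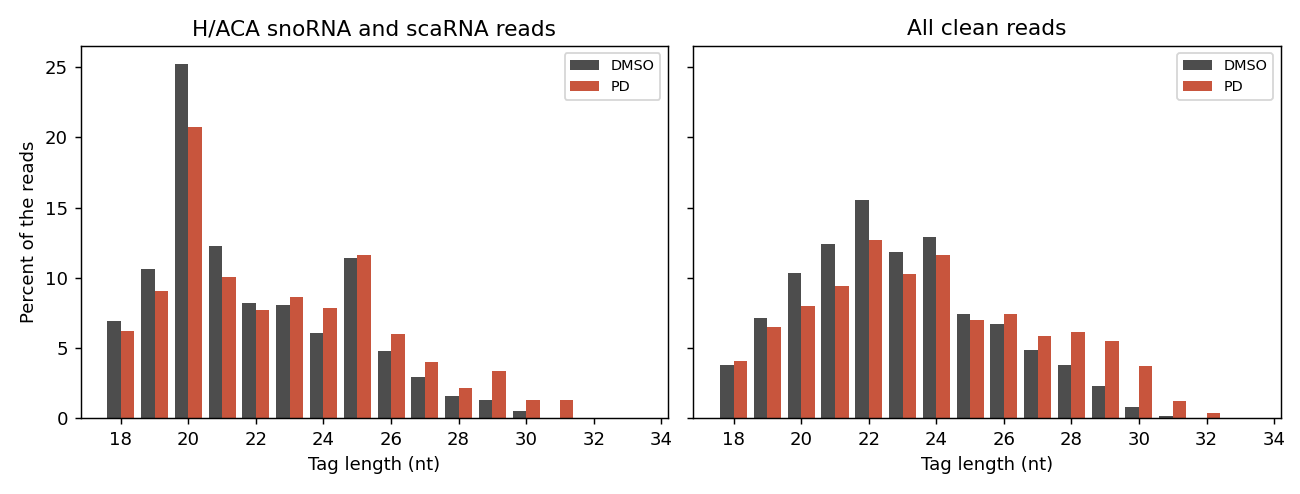
Percent of the reads by tag length in nt, for the reads of H/ACA snoRNAs and scaRNAs (left) and for all clean reads (right), with 1 bar for the DMSO library and 1 for the PD library. The left panel peaks at 20 nt with 25.3% and 20.7% and has a lower peak at 25 nt, while the right panel peaks at 22 nt with 15.6% and 12.7%, and in each panel the longest tags take a larger share of the PD library.

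**Figure D5:**
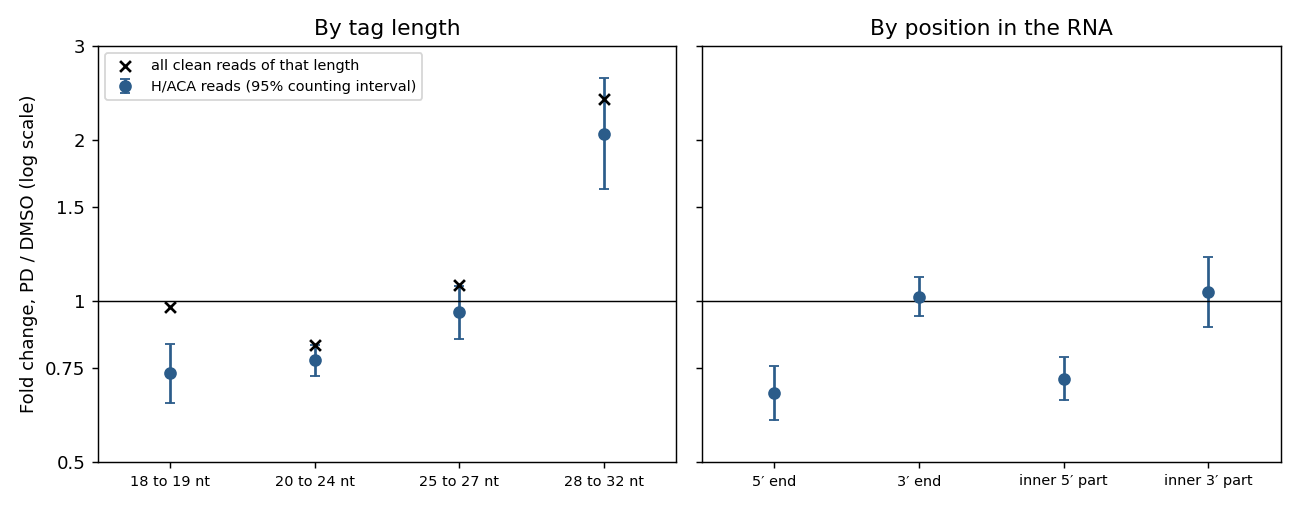
Fold change of RPM, PD against DMSO, on a log axis, with 95% counting intervals, for the reads of H/ACA snoRNAs and scaRNAs by tag length (left) and by position in the RNA (right). Crosses mark the fold change of all clean reads of the same length, which lies at 2.38 for 28 to 32 nt against 2.05 for the fragments, and the 5′ end and the inner 5′ part lie below 1.

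The first base of the reads was uneven as well. T stood first in 38.5% of the reads with DMSO and 34.2% with PD, against 26.5% of all bases of the 49 RNAs, and the capital tag of Snora57, which begins with T, holds much of it.

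Host genes gave a further grouping of the RNAs. Of the 49 RNAs, 44 lie in a host gene on the same strand. The 9 RNAs in Snhg genes had 949 and 1076 reads, a fold change of 1.02 (0.935 to 1.12), with 5 of the 6 RNAs with at least 20 reads above 1. Among these 5, Snora61 lay at 1.00, and the interval of Snora16a alone left out 1. The 11 RNAs in ribosomal protein genes had 390 and 324 reads, a fold change of 0.748 (0.644 to 0.870), with 4 of 6 below 1. Without Snora7a they had 228 and 226 reads, a fold change of 0.893 (0.740 to 1.08), so the lower level of this group rests on that RNA. The 4 RNAs in genes of translation factors had 265 and 279 reads, a fold change of 0.949 (0.799 to 1.13). The 5 RNAs without a host gene had 1057 and 849 reads, a fold change of 0.724 (0.660 to 0.793). Without Snora57 they had 47 and 78, a fold change of 1.495 (1.03 to 2.20). Scarna2 gave 23 and 61 of those reads, so that higher value rests on Scarna2. Within Snhg12, Snora16a had a fold change of 1.19 and Snora44 of 0.710. These 2 RNAs share a host, but the first was read at its 3′ end and the second at its 5′ end. Whether position has a part in the difference was not tested.

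Snora36b is shown last because it overlaps a miRNA. Its inner 3′ part is annotated as the hairpin of Mir664, and the rule leaves out every tag that matches that hairpin.
Snora36b: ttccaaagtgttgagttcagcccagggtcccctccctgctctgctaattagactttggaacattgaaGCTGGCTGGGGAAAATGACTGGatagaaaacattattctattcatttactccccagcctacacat
It lies in Rab3gap2 at chr1:185242907-185243038 on the plus strand. The hairpin record begins at base 69, and the capital tag begins at base 68. In all, 26 of 28 reads with DMSO and 35 of 37 with PD began at base 68, and 27 and 36 held miR-664-5p with at most its last 3 bases missing. The reads that began at base 68 escaped the rule by 1 base before the hairpin record, and their fold change was 1.21 (0.709 to 2.10).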

How the data were processed

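Small RNA of J1 mESCs was purified, ligated to adapters and sequenced for the authors by the Beijing Genomics Institute. Low-quality and contaminating reads and reads under 18 nt were removed, and identical reads were collapsed. The deposited counts are raw numbers of clean reads per distinct tag, with no alignment or normalization, and sum to 18870345 (DMSO) and 20944808 (PD). The submitters' processing notes name mm9, but the tags carry no coordinates, and coordinates here are those of GENCODE M21 on GRCm38. The 2 overlapping records of Snora16a and of Snora43 were taken as 1 RNA each.

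Tags of 18 to 44 nt were matched with Python 3.11.15. A miRNA hairpin was a GENCODE M21 miRNA record whose symbol starts with Mir. Reads that matched another miRNA record were kept, 42 with DMSO and 27 with PD. RPM is reads per 1000000 clean reads, and a tag shared by several RNAs was counted for each, but once in totals. Intervals are from SciPy 1.17.1 and folds of the RNAs from ViennaRNA 2.7.2. The quasi-likelihood test of edgeR, DESeq2 and limma need replicates and were not run. Size factors of edgeR 4.0.16 (TMM) and DESeq2 1.42.0 in R 4.3.3 were used as alternatives, and figures were drawn with matplotlib 3.10.9. The size factors were computed over the small RNA genes with at least 20 reads, where a shared tag counts for each gene. The matching and the calls were tested on simulated data.

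The members and lists were chosen with earlier results of these data known. The rule for named RNAs was the 15 with the most reads, the 5 largest rises and falls at 1.5-fold with at least 100 reads, every Scarna RNA with at least 20 reads, and Terc. Snora21, Snora36b, Snora62, Snora64, Snora73b and Snora74a, RNAs named as exceptions, as lacking an ACA or as having 0 reads, and the sequences beyond the first 10 were chosen after their values were seen.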

Additional observations from a re-analysis of the deposited data

Results flagged for a closer look

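Reads outside the comparisons above matched the same RNAs. First, 322 reads of the DMSO library and 353 of the PD library, 61 tags in all, lie in a Snora or Scarna RNA but also match a miRNA hairpin, and the rule left them out. Of these, 273 and 295 lie in Snora36b and match Mir664, a fold change of 0.974 (0.823 to 1.15). The most frequent of them had 162 and 183 reads and starts at base 69 of Snora36b, 1 base after the reads counted for Snora36b. Scarna3a had 13 and 20 such reads in Mir1843b, and Scarna3b had 17 and 17 in Mir1843a, while the 5′ ends of the same RNAs had 34 and 18 reads and 62 and 29. Snora34 had 9 and 15 reads in Mir1291, Scarna13 had 7 and 5 in Mir3069, and Snora19 had 2 and 1 in Mir3084-1.

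Second, 80 reads with DMSO and 105 with PD match one of these RNAs apart from 1 to 3 further bases at the 3′ end of the tag. In 35 and 37 of them the added bases were A only, and in 32 and 48 they were T only. Most, 69 and 91 reads, end before the annotated 3′ end of the RNA. Snora41 gave the most, with 17 and 26 reads, and Snora36b 16 and 16. A sequencing error and an added base cannot be told apart in these reads. Other samples that would give a background level were not analysed here, so these numbers have no error level to be set against.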

How the results depend on the processing

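No paired analysis was possible because each treatment has 1 library and the labels give no replicate numbers. Of 72 values under alternatives, 38 stayed within the counting interval of the main value or within 1.5 times the main count, 34 moved, and no direction of the total share was reversed. The fold change of the total share, 0.844, was 0.798 with TMM and 0.791 with DESeq2 size factors, 0.932 with tags of 1 RNA only, 0.921 without Snora57 and 0.909 relative to clean reads of the same length. The number of RNAs higher in PD was 1, but 9 without the read filter and 0 with at least 100 reads, relative to clean reads of the same length, or without the scaRNAs with a C or D box. The number lower was 6, but 10 without the filter, 1 with at least 100 reads, 7 with TMM (Snora57 added), 8 with DESeq2 size factors (Snora57 and Snora44 added), and 4 with tags of 1 RNA only or without tags seen once, where Scarna17 and Snora21 were lost. The RNAs counted were 46 without the filter, 13 with at least 100 reads and 19 with tags of 1 RNA only. They were 22 without tags seen once, 20 without the scaRNAs with a C or D box, and 24 otherwise. Shares over all small RNA genes were not counted under these alternatives, so these counts have no background beside them. With tags of 1 RNA only, the 5′ end held 37.0% (DMSO) and 27.01% (PD), the 3′ end 48.8% and 57.2%, tags of 28 to 32 nt 5.44% and 12.1%, and tags of 20 to 24 nt 55.2% and 49.6%. Without Snora57 these were 32.8% and 23.9%, 46.0% and 52.9%, 4.74% and 11.0%, and 56.4% and 51.2%. Without tags seen once, the 3′ end held 43.97% and tags of 28 to 32 nt 6.90% in PD. With 2 nt in place of 5 nt the 3′ end held 31.0% and 38.4%. Without the scaRNAs with a C or D box, the 5′ end held 19.9% in DMSO, and in PD tags of 28 to 32 nt held 5.75% and of 20 to 24 nt 56.9%. In each of these pairs the 5′ share and the share of 20 to 24 nt were lower in PD, and the 3′ share and that of 28 to 32 nt higher. Causes of these moves beyond fewer reads or RNAs were not tested. The same-length scaling, the C or D box alternative and the host groups without Snora7a or Snora57 were chosen after seeing the data. With 20 reads over both libraries the intervals span several-fold, and nothing here measures the variation between cultures.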
